A study of Mus musculus with 8 samples.

Results

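Secreted acute phase and antimicrobial proteins of monocytes were followed here as 8 genes, Slpi, Saa3, Lcn2, Hp, Chil3, Wfdc17, Lyz1 and Lyz2, of the 16889 genes in the table of transcript counts. The members were chosen by their measured levels in these same cells, for a pattern of high levels in monocytes, so their order across cell types is given below as a description and carries no test. The difference between treated and control mice was tested in fits over all genes.

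The study asked how the loss of CD98hc, the heavy chain of a family of amino acid transporters encoded by Slc3a2, changes monocytes and macrophages of the colon. The 8 mice were female littermates named CD98hcΔCX3CR1, which carried CD98hc flox/flox alleles and a tamoxifen-inducible Cre recombinase with YFP under the Cx3cr1 gene (Cx3cr1CreER-YFP), so that recombination was limited to cells that use this gene when tamoxifen is given. The 4 control mice, numbered 1 to 4, received corn oil, and the 4 conditional knockout (cKO) mice, numbered 5 to 8, received tamoxifen, in both cases by daily injection for 5 days with the readout at day 7. From the lamina propria of the colon, CD11b+ cells with CCR2 or CD64 on their surface were sorted, and each mouse was loaded into 1 well of a droplet device (10x Genomics 3′ chemistry, version 2), which counts transcripts by unique molecular identifiers (UMIs). No mouse without Cre received tamoxifen in this series, so the effects of tamoxifen and of the deletion cannot be told apart. The study's methods give an age of 6 to 12 weeks for the littermates used in its experiments.

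After filtering, 3213 cells remained, 1863 from control and 1350 from cKO mice, with 589135 to 3762314 UMIs per control mouse and 497531 to 2486236 per cKO mouse. Control 3 and cKO 5 held only 85 and 83 cells, and 24 of the 58 doublet calls in cKO mice fell in cKO 5. Barcodes shared between wells numbered 8 among the kept cells. Slc3a2 did not check the labels at the RNA level, with 233 to 493 counts per 1e+06 UMIs (CPM) in control and 291 to 357 CPM in cKO mice, so each group is named as it was labelled.

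These proteins belong to the innate response to infection and injury. Interleukin-6 and interleukin-1 drive acute phase genes through the transcription factors STAT3, C/EBP and NF-κB, in liver and also in myeloid cells and epithelia, and the products bind lipids, iron carriers or free hemoglobin, block proteases, or break bacterial walls. In the colon, monocytes arrive from blood through CCR2 and turn into resident macrophages over days, and genes of the incoming monocyte, such as Chil3, are known to fall during that passage.

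By role, Slpi and Wfdc17 encode small proteins with a whey acidic protein domain, and Slpi (secretory leukocyte protease inhibitor) blocks neutrophil elastase and cathepsin G. Saa3 encodes a serum amyloid A that is made outside the liver, Hp encodes haptoglobin, which binds free hemoglobin, and Lcn2 encodes lipocalin 2, which captures the iron carriers of bacteria. Chil3, also known as Ym1, encodes a chitinase-like protein with no chitinase activity. Lyz1 and Lyz2 encode the 2 mouse lysozymes, which cut the peptidoglycan of bacterial walls and are named after Paneth cells and myeloid cells.

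The 8 genes lie at 7 separate places of the mouse genome (GRCm38, GENCODE vM21), and only the lysozyme genes are neighbours. Slpi is at chr2:164354070-164389095, Lcn2 at chr2:32384633-32388252, Chil3 at chr3:106147554-106167564, Saa3 at chr7:46711998-46715700 and Hp at chr8:109575128-109579172, all on the minus strand. Lyz2 at chr10:117277331-117282321 and Lyz1 at chr10:117287797-117292868 are on the minus strand too, and Wfdc17 is at chr11:83703991-83706268 on the plus strand. The sequences before the transcription start are shown for Slpi, Saa3 and Chil3, the members called higher in cKO mice as an average over clusters, and for the lysozyme pair, to show how alike those genes are. They are RefSeq sequences of GRCm38.p6, 5′ to 3′ on the minus strand, taken from the 250 bases before the start and outside GENCODE exons, and capitals mark, on either strand, the C/EBP run TTNNGNAA and the NF-κB run, which is GGG and CC with 5 free bases between them. The capitals that end the Lyz2 stretch are the first 6 bases of a C/EBP run that goes on into the exon.
Slpi chr2:164356508-164356757: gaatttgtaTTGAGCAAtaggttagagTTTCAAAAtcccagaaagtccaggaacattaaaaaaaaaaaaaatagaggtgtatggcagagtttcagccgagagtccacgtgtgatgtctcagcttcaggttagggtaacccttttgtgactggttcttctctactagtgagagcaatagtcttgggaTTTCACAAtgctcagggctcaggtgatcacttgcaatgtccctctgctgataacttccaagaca
Saa3 chr7:46715701-46715926: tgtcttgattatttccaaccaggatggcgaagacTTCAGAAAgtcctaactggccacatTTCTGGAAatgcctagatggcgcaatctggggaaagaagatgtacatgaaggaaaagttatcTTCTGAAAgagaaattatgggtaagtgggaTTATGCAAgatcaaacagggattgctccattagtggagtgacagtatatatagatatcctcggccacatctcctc
Chil3 chr3:106167565-106167814: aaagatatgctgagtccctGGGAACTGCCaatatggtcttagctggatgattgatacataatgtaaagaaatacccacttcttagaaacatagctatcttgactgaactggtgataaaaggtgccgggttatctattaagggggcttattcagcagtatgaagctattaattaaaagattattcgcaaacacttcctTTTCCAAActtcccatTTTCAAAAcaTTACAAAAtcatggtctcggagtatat
Lyz2 chr10:117282322-117282522: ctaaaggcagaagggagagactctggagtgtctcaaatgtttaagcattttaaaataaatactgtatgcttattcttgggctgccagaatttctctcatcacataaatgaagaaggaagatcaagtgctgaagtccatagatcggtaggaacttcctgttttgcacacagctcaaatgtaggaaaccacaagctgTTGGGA
Lyz1 chr10:117292869-117293118: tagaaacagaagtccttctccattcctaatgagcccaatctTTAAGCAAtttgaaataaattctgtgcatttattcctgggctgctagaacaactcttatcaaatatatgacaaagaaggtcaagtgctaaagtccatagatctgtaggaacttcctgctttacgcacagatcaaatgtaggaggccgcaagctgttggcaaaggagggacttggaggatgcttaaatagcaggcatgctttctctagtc

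The promoter table held 7 of the 8 members, without Hp. The C/EBP run was in all 7 windows of 300 bases (250 before and 50 after the start) and in 40.7% of the 32851 windows of the table, with 4 runs before Saa3, 3 before Slpi and 3 before Chil3. The NF-κB run was in the windows of Chil3 and Lcn2 and in 50.8% of all windows. The run of interferon-stimulated response elements, which is GAAA and GAAA with 2 free bases between them, was among the members in the Saa3 window alone, where it shares 4 bases with the third C/EBP run, and in 3.44% of all windows. GAGGAA (PU.1) was in the windows of Lcn2 and Wfdc17 (28.3% of all windows) and TATAAA in those of Chil3 and Wfdc17 (13.6%). All runs were searched on both strands, and they describe letters only, since no binding was measured. The upstream bases of Lyz1 and Lyz2 were identical at 78.8% of aligned positions, which the capitals show at different places, and their transcripts at 92.0%.

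Chil3 and Hp were higher in every cKO mouse than in every control mouse. Slpi also rose, Saa3 and Lcn2 had estimates of similar size that did not pass the test, Wfdc17 and Lyz1 had smaller ones, and Lyz2 the smallest. In the fit of UMIs summed over all cells of a mouse, 3 of the 8 members were higher in cKO mice at an adjusted p under 0.05 and 0 were lower, where 2.99% of the 11387 genes tested were higher and 1.48% lower. The median log2 fold change of the 8 members was 2.29, and that of all genes tested was -0.03.

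Chil3 was at 108, 63.6, 57.7 and 146 CPM in control mice 1 to 4 and at 502, 588, 666 and 368 CPM in cKO mice 5 to 8. The groups were far apart, with the lowest cKO mouse above the highest control mouse, and the small libraries sat with their groups. The means were 93.7 ± 41.3 and 531 ± 128 CPM (SD, n = 4 each), and edgeR's quasi-likelihood test, with p-values adjusted by Benjamini and Hochberg's method, gave a log2 fold change of 2.58 (SE 0.29, adjusted p = 0.000736). This call held in all 14 alternatives run for it.

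Hp was at 154, 82.6, 39.0 and 239 CPM in control mice and at 320, 602, 962 and 404 CPM in cKO mice. The highest control mouse lay below the lowest cKO mouse, which was the small library of cKO 5. The means were 129 ± 87.6 and 572 ± 286 CPM (SD, n = 4 each), and the log2 fold change was 2.24 (SE 0.46, adjusted p = 0.0218 by edgeR's quasi-likelihood test). The call was lost without control 1, control 2 or cKO 7, where the adjusted p was 0.0607, 0.0773 and 0.0623. All 4 cKO mice stood above all 4 control mice for Chil3 and Hp on the CPM scale, and for 4.00% of all genes tested. On the scale of CPM corrected by TMM (trimmed mean of M values), Slpi joined them, against 5.85% of all genes.

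Slpi was at 164, 45.9, 11.9 and 167 CPM in control mice and at 163, 659, 1134 and 516 CPM in cKO mice. The cKO mice 6, 7 and 8 were each above every control mouse, and cKO 5 was level with the highest controls. The means were 97.2 ± 80.1 and 618 ± 402 CPM (SD, n = 4 each), and the log2 fold change was 2.74 (SE 0.65, adjusted p = 0.0368, edgeR quasi-likelihood test). That call rested on few mice. Leaving out control 1, control 2, cKO 6, cKO 7 or cKO 8 gave an adjusted p of 0.0669, 0.118, 0.0719, 0.110 and 0.0625, and leaving out the doublet calls gave 0.0637.

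Saa3 was at 284, 140, 114 and 821 CPM in control mice and at 20.1, 2205, 3231 and 935 CPM in cKO mice. Here cKO 5 was the lowest mouse of all and the other 3 cKO mice were above every control. The estimate was 2.35 (SE 0.94, adjusted p = 0.180), and without cKO 5 it was 2.76 and passed (adjusted p = 0.0368, edgeR quasi-likelihood test in both cases). Lcn2 had few UMIs, with 2, 25, 0 and 21 in control mice and 5, 49, 108 and 8 in cKO mice, or 0.532, 7.65, 0 and 7.07 against 10.0, 29.6, 43.4 and 3.50 CPM. Its groups overlapped and the estimate of 2.48 (SE 0.76) did not pass (adjusted p = 0.0889, edgeR).

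Wfdc17 was at 971, 620, 411 and 784 CPM in control and at 655, 1053, 1580 and 1083 CPM in cKO mice. Lyz1 was at 2894, 2161, 3911 and 1440 CPM in control and at 7491, 3738, 2855 and 3856 CPM in cKO mice. Lyz2 was at 13389, 10249, 6425 and 9392 CPM in control and at 10653, 11561, 11372 and 11505 CPM in cKO mice. For each of these 3 genes the groups overlapped. The log2 fold changes were 0.76 (SE 0.28, adjusted p = 0.154) for Wfdc17, 0.86 (SE 0.32, adjusted p = 0.159) for Lyz1 and 0.29 (SE 0.18, adjusted p = 0.403) for Lyz2 by the same edgeR test, and none passed.

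**Figure D1:**
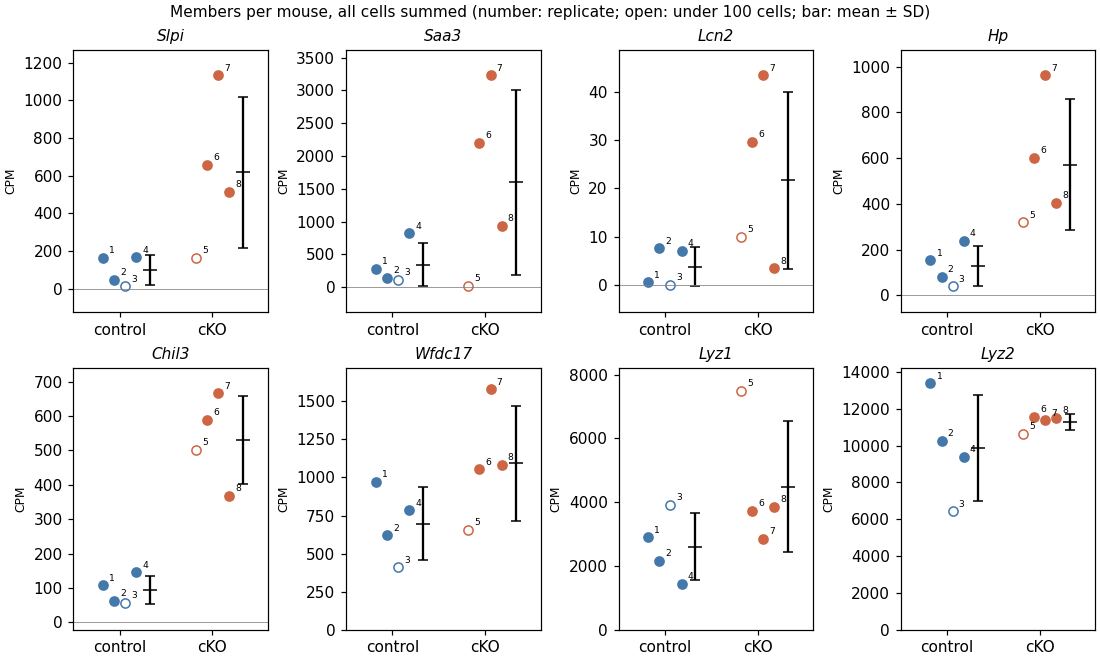
Level of each member in CPM (y axis, linear) for the control and cKO mice (x axis), 1 point per mouse with its number, open where a mouse had under 100 cells, and the bar giving the mean ± SD of 4 mice. For Chil3 the 4 cKO mice lie between 368 and 666 CPM, all above the control mice at 57.7 to 146 CPM, while for Lyz2 the cKO mice lie inside the range of the controls.

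The kinds of cells moved with these levels. The summed level of the 8 monocyte markers was 1916 to 3493 CPM in control mice and 7047 to 10553 CPM in cKO mice, and that of the 12 dendritic cell markers was 1273 to 1693 against 561 to 744 CPM. The 14 macrophage markers summed to 11696 to 23505 CPM in control and 9559 to 15862 CPM in cKO mice, the lymphoid markers to 212 to 8820 against 4319 to 13004 CPM, and the neutrophil markers to 86.9 to 410 against 213 to 341 CPM. In sums over all cells, more cells of a type and more RNA per cell cannot be told apart, so the members were next followed within clusters.

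Cells were grouped into 9 clusters without the members, the other gene lists, the markers, Slc3a2, the YFP reporter and the genes that the study lists as changed. From markers, cluster 4 (498 cells) was monocyte-like, clusters 1 (669 cells) and 6 (234 cells of low depth) macrophage-like, cluster 2 (583 cells) dendritic cell-like, cluster 7 (183 cells) lymphoid-like and cluster 9 (86 cells) stromal-like. Clusters 3, 5 and 8 passed no marker rule and are called by their leading genes, which were Ccl24, Il1a, Il1rn and Arg1 in cluster 3 (521 cells), Ier5, Cebpb and Hes1 in cluster 5 (261 cells) and Pglyrp1, Cebpb, Gsr and Ear2 in cluster 8 (178 cells). Clusters 5 and 8 were of low depth too, with medians of 1982 and 1992 UMIs per cell. Control cells of cluster 8 also carried monocyte markers, with Plac8 at 7258 and Ccr2 at 794 CPM, beside 7105 and 1028 CPM in cluster 4. Ly6c2 was lower in cluster 8, at 454 against 1247 CPM. The monocyte-like cluster held 6.09 ± 3.42% of the cells of a control mouse and 23.3 ± 10.0% of those of a cKO mouse (SD, n = 4 each). The 10 neutrophil markers were at 0 to 102 CPM in control and 0 to 76.0 CPM in cKO cells of this cluster. Cd177 (102 and 43.5 CPM), which was also among its leading genes, Mmp8 (87.7 and 33.9 CPM) and Csf3r (78.3 and 72.7 CPM) were the highest in control cells, Il1r2 was at 26.6 and 76.0 CPM and S100a8 at 14.1 and 14.8 CPM. Of the others, S100a9, Mmp9 and Retnlg were each at 0 CPM in control and 0.956 CPM in cKO cells, and Cxcr2 was at 0 in both. The part of neutrophil RNA in these values was not tested.

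In control mice, 4 members had their highest level in the monocyte-like cluster and the next in cluster 8. Pooled over control cells, cluster 4 and cluster 8 had Lyz2 at 45187 and 25404 CPM, Lyz1 at 9257 and 5930 CPM, Hp at 979 and 745 CPM, and Chil3 at 898 and 737 CPM. The mice that had enough cells were close to each other in cluster 4, with 968 to 1004 CPM for Hp and 887 to 919 CPM for Chil3 over 3 mice. In cluster 8 the 2 mice with enough cells were at 1176 and 548 CPM for Hp and at 1071 and 597 CPM for Chil3, a spread that takes in the level of cluster 4, so the order of those clusters is not set for these genes.

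The other 4 members peaked elsewhere. Saa3 was highest in cluster 3 at 1952 CPM, ahead of the low-depth macrophage-like cluster 6 at 896 CPM, and at 288 CPM in monocyte-like cells. That last value rests on control 1, which held 179 of the 184 Saa3 UMIs there, and it was 1048 CPM when cells were clustered by a graph. Lcn2 was highest in cluster 3 at 18.2 CPM. Wfdc17 was highest in cluster 6 at 2923 CPM, with 1793 CPM in cluster 4 and 1693 CPM in cluster 8. Slpi was highest in the lymphoid-like cluster at 1788 CPM, ahead of cluster 8 at 348 CPM and cluster 4 at 196 CPM. Pooled over control cells, Hp, Chil3 and the lysozymes were thus highest in the monocyte-like cluster, and Lcn2 and Wfdc17 in others. For Hp and Chil3 the order of clusters 4 and 8 is not set. Outside the lymphoid-like cluster, Slpi was highest in clusters 8 and 4. The level of Saa3 in monocyte-like cells depended on 1 mouse and on the clustering. Because the members were chosen for high levels in monocytes, this order is no test of that label.

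**Figure D2:**
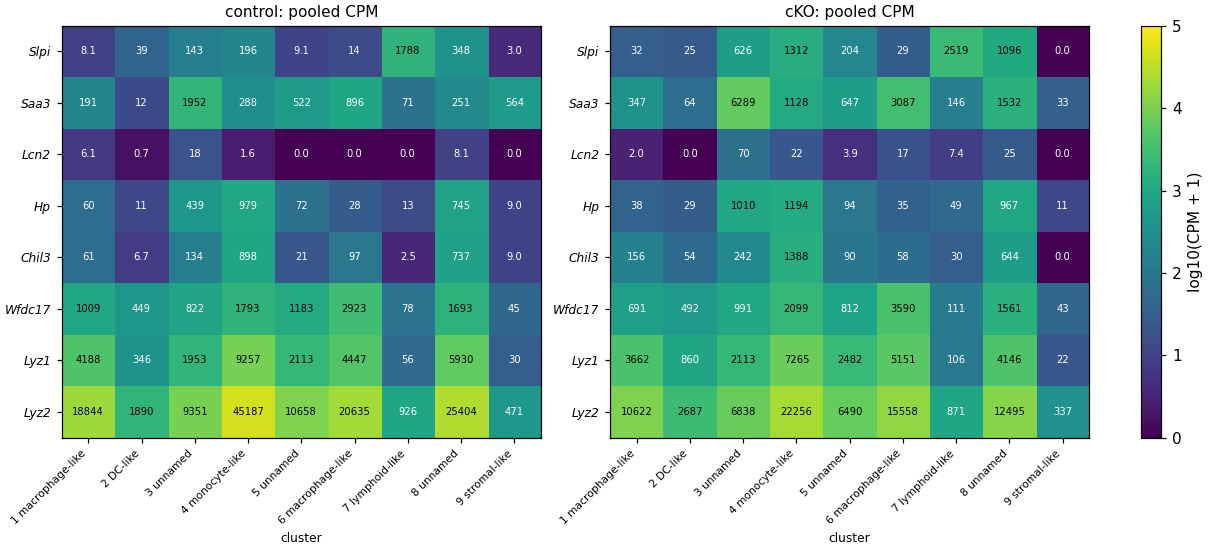
Heat maps of the pooled level of each member (y axis) in the 9 clusters (x axis) of control and cKO cells, with the CPM written in each cell and the colour on a scale of log10(CPM + 1). Lyz2 and Lyz1 peak in cluster 4 in both groups, Saa3 in cluster 3 (1952 and 6289 CPM) and Slpi in the lymphoid-like cluster 7 (1788 and 2519 CPM).

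The UMIs of these genes were spread over cells in different ways. Over all 3213 cells, Chil3 had 72.4% of its 4802 UMIs in cluster 4, Hp had 51.6% of its 6054 UMIs there and 36.1% in cluster 3, and Saa3 had 70.3% of its 17859 UMIs in cluster 3. Saa3 was also concentrated in few cells, with 55.8% of its UMIs in the 33 cells that held the most and up to 726 UMIs in 1 cell. Lcn2 went further, with 78.9% of 218 UMIs in 33 cells, whereas the same number of cells held 7.76% of the 194574 Lyz2 UMIs. At least 1 Lyz2 UMI was seen in 96.7% of all cells, and in stromal-like control cells in 83.8%, so a Lyz2 UMI does not mark a cell.

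In the lymphoid-like cluster, Slpi was in the cells with B lineage transcripts. Of the 53 cells there with a UMI of Cd79a, a part of the B cell receptor, 47 had Slpi, at 4454 CPM, against 8 of the 130 others, at 31.3 CPM. Of the 60 cells with Cd3g, a part of the T cell receptor complex, 2 had Slpi. In all, 34 cells with 10 or more Slpi UMIs held 96.9% of the Slpi UMIs of the cluster. These splits were chosen after the values were seen and carry no test. Per mouse, Slpi in this cluster was at 3039, 946 and 1696 CPM in control 1, 2 and 4 and at 2643, 2397 and 2599 CPM in cKO 6, 7 and 8, and the groups overlapped.

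Within the monocyte-like cluster, Slpi was the only member that was called. It was at 179, 77.7 and 290 CPM in control 1, 2 and 4 and at 1124, 1709 and 876 CPM in cKO 6, 7 and 8, and the groups were clearly apart. Control 3 and cKO 5 had too few cells there to enter, and cKO 5 entered no comparison by cluster. The log2 fold change was 2.86 (SE 0.55, adjusted p = 0.000801, edgeR quasi-likelihood test, sums of at least 20 cells), in a contrast that called 1.22% of 11343 genes in either direction. The call held in all 15 alternatives that gave a value, with a log2 fold change of 2.17 to 3.30.

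The share of monocyte-like cells with a Slpi UMI was 45 of 140 in control mice (32.1%, 95% Wilson interval 25 to 40.3%) and 238 of 358 in cKO mice (66.5%, 61.4 to 71.2%), at median depths of 4594 and 5760 UMIs per cell. Thinned to 1000 UMIs per cell, the shares were 10.7% and 36.1%, with 1 cKO cell left out as too shallow. Dendritic cell-like cells, taken as the background, had a Slpi UMI in 5.23% of control and 16.9% of cKO cells at median depths of 9146 and 7467 UMIs, or in 0.668% and 1.71% thinned, all below the shares of monocyte-like cells. In stromal-like cells Slpi was in 1 of 68 control cells (1.47%) and in 0 of 18 cKO cells, which allows a share of up to 16.7%. Intervals and limits cover counting error only.

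The other members of cluster 4 did not pass the test. Saa3 was at 682, 13 and 14 CPM in control 1, 2 and 4 and at 1966, 1441 and 146 CPM in cKO 6, 7 and 8. It varied widely between the mice of a group, and the value of control 1 lay above that of cKO 8. The estimate was 2.30 (SE 0.82, adjusted p = 0.223, edgeR), and without control 1 it became 6.56 and passed (adjusted p = 0.00137). A Saa3 UMI was seen in 9 of 140 control cells (6.43%, median depth 4594 UMIs) and in 10.7% of dendritic cell-like control cells (median depth 9146 UMIs). Thinned to 1000 UMIs, these shares were 1.43% and 1.34%, so the control share could not be told from background at this depth. In cKO mice the shares were 34.9% (125 of 358 cells) and 31.5%, or 11.5% and 6.84% thinned.

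Hp was at 968, 1004 and 999 CPM in control 1, 2 and 4 and at 1550, 1249 and 830 CPM in cKO 6, 7 and 8 of the monocyte-like cluster. The control mice were nearly equal and the cKO mice lay on both sides of them. Chil3 was at 919, 887 and 897 CPM in the control and at 1892, 1340 and 1020 CPM in the cKO mice, all 3 cKO mice above the controls. The estimates were 0.41 (SE 0.30, adjusted p = 0.714) for Hp and 0.77 (SE 0.35, adjusted p = 0.442) for Chil3 by edgeR's quasi-likelihood test. Neither passed, and both estimates were smaller than those over all cells. Chil3 did pass there with no filter on low counts (0.80, adjusted p = 0.0362) and with each cluster fitted alone (0.76, adjusted p = 0.000175), fits that set the spread of each gene to a common value, and not in the other 13 alternatives.

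Lyz2 had a negative estimate in this cluster. It was at 43907, 50923 and 43387 CPM in control 1, 2 and 4 and at 27844, 18875 and 23569 CPM in cKO 6, 7 and 8. The groups did not overlap, and the estimate of -0.85 (SE 0.31) did not pass (adjusted p = 0.230, edgeR). The share of all genes with this order was not counted, so the order is not read as a result. When limma-voom was fitted with a random term for the mouse, the estimate was -0.86 and passed (adjusted p = 2.39e-06). Lyz1 had an estimate of -0.20 (adjusted p = 0.937) and Wfdc17 of 0.32 (adjusted p = 0.741) in the same edgeR fit. Lcn2 had an estimate of 3.53 there (SE 1.46, adjusted p = 0.370), on 1 UMI in control and 45 UMIs in cKO cells.

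**Figure D3:**
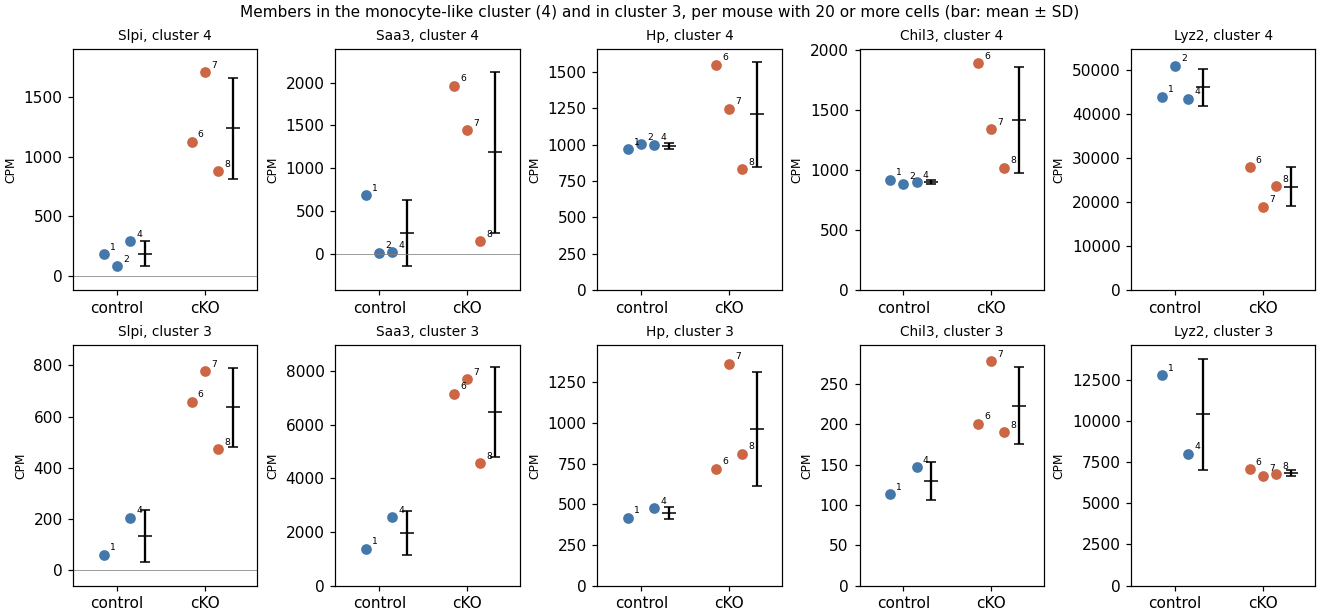
Slpi, Saa3, Hp, Chil3 and Lyz2 within cluster 4 (top) and cluster 3 (bottom), in CPM (y axis) per mouse with at least 20 cells in the cluster, for control and cKO mice (x axis), with the mean ± SD as a bar, which can reach below 0. In the monocyte-like cluster Slpi runs from 77.7 to 290 CPM in control and from 876 to 1709 CPM in cKO mice, and Hp overlaps between the groups.

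In cluster 3, led by Ccl24, Il1a and Arg1, no member was called. Slpi, Saa3, Hp and Chil3 were higher in all 3 cKO mice than in both control mice that had enough cells. The share of all genes with this order was not counted, and with so few mice it is not read as a result. Slpi was at 59.4 and 204 CPM in control 1 and 4 and at 658, 777 and 472 CPM in cKO 6, 7 and 8 (log2 fold change 2.24, SE 0.60, adjusted p = 0.0554, edgeR). Saa3 was at 1381 and 2550 CPM in control and at 7140, 7679 and 4551 CPM in cKO mice (1.76, SE 0.87, adjusted p = 0.639). Hp was at 419 and 475 CPM against 720, 1365 and 811 CPM (1.17, SE 0.34, adjusted p = 0.115).

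Chil3 was at 113 and 147 CPM in control and at 201, 278 and 190 CPM in cKO mice (0.82, SE 0.43, adjusted p = 0.661). Lcn2 was at 2.83 and 25.1 CPM in control and at 74.1, 105 and 15.6 CPM in cKO mice (2.02, SE 0.68, adjusted p = 0.253). The contrast of cluster 3 called 0.767% of all genes and 0 of the 8 members by edgeR. In the limma-voom fit with that random term Slpi, Saa3 and Hp passed there (adjusted p = 0.0143, 0.00152 and 0.00480).

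Cells of cluster 3 often carried several members at once. Of its 263 cKO cells, 148 had Saa3 and 167 had Hp, and 114 had both. All 30 cKO cells with Lcn2 also had Saa3, and 28 of them had Hp, while in control cells 9 of 11 with Lcn2 had Saa3 and all 11 had Hp. In the monocyte-like cluster, 262 of 358 cKO cells had both Hp and Chil3, and 229 of the 238 cells with Slpi had Hp. Hp was in 332 (92.7%) and Chil3 in 280 (78.2%) of those 358 cells, so overlaps near these counts need no link between the genes. Such overlaps also follow depth, since a cell with more UMIs shows more genes.

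Chil3 was called in the dendritic cell-like cluster as well. It was at 5.28, 1.91, 3.93 and 15.6 CPM in control 1 to 4 and at 32, 28.8 and 52.1 CPM in cKO 6, 7 and 8. All cKO mice were above all control mice at a low level, with 29 UMIs in all control cells and 57 in all cKO cells of the cluster. The log2 fold change was 2.43 (SE 0.58, adjusted p = 0.0192, edgeR), where 0.591% of genes were called, and it missed the threshold without control 2 (adjusted p = 0.144) or cKO 8 (adjusted p = 0.739). Chil3 UMIs were in 2.18% of control and 12.9% of cKO cells of the cluster, and the lymphoid-like cluster moved from 2.53 to 29.6 CPM as well. The part of free RNA in these low levels was not tested.

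In the other clusters 0 members were called by edgeR. The contrasts called 0.829% of genes in cluster 1, 0.00882% in cluster 5, 0.132% in cluster 6, 0.0882% in cluster 7 and 0.0353% in cluster 8. Saa3 had a positive estimate in 8 of 8 clusters, Slpi in 7 of 8, and Lyz2 a negative one in 7 of 8. The share of all genes with signs as even as these was not counted. In macrophage-like cluster 1, Lyz2 was at 20095, 18259 and 17566 CPM in control 1, 2 and 4 and at 8254, 11478 and 12270 CPM in cKO 6, 7 and 8. The groups were apart there too, an order that is again not read as a result. The estimate was -0.88 (SE 0.31, adjusted p = 0.267, edgeR) and did not pass.

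Averaged over the 8 clusters with equal weight, which takes the number of cells in each cluster out of the comparison, 3 members were called higher and 1 lower, where 2.34% of genes were called higher and 0.679% lower. The average log2 fold change was 1.80 (SE 0.43, adjusted p = 0.00619) for Slpi, 1.78 (SE 0.34, adjusted p = 0.000205) for Saa3, 1.17 (SE 0.29, adjusted p = 0.00759) for Chil3 and -0.54 (SE 0.11, adjusted p = 0.000846) for Lyz2, all by edgeR's quasi-likelihood test. Hp was at 0.57 (adjusted p = 0.235), Lyz1 at 0.14 and Wfdc17 at 0.07, and none of these passed. The average leaves out cKO 5, which had too few cells in every cluster. Over all cells that mouse had the lowest Saa3 level of all mice, 20.1 CPM. Lcn2 had no UMI in one group of several clusters, so no average is given. Equal weight also lets clusters with few UMIs count in full. For Chil3 the largest estimates were 3.05 in cluster 7 (1 control and 12 cKO UMIs), 2.43 in cluster 2 and 2.11 in cluster 5 (7 and 23 UMIs). In clusters 4, 3 and 8, where its control level was highest, they were 0.77, 0.82 and -0.30. For Slpi the largest was 4.64 in cluster 5, on 3 control and 52 cKO UMIs, and it was 2.86 in cluster 4.

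The edgeR fit takes the sums of a mouse in several clusters as independent. When the mouse was a random term (limma-voom), Slpi (1.98, adjusted p = 0.000417) and Chil3 (1.23, adjusted p = 0.00783) still passed, whereas Saa3 (1.96, adjusted p = 0.0790) and Lyz2 (-0.53, adjusted p = 0.0629) did not. Whether the difference between groups varied from cluster to cluster was tested in 1 F test per gene, which called 0 of the 8 members and 0.150% of all genes by edgeR. The smallest adjusted p among the members was 0.356, for Slpi.

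A calculation from pooled levels and shares set the makeup of the sorted cells beside the levels within clusters, as a description with no error. With the control level kept in every cluster and only the share of UMIs per cluster taken from cKO mice, Chil3 was 1.76 higher on the log2 scale and Hp 1.56 higher, out of 2.40 and 2.11 in all. With control shares and cKO levels, the same genes were 0.92 and 0.70 higher. Slpi and Saa3 leaned to the other side, with 0.86 and 0.71 from shares alone and 1.29 and 1.52 from levels alone. For Lyz2 the parts had opposite signs, 0.93 from shares and -0.66 from levels, beside a total of 0.06.

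**Figure D4:**
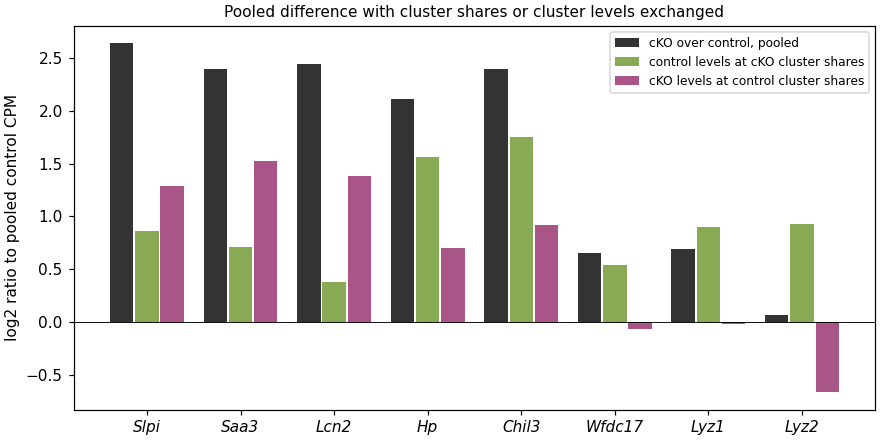
Log2 ratio to the pooled control CPM (y axis, bars from 0) for each member (x axis), in all cells, with control levels at cKO cluster shares, and with cKO levels at control shares. Chil3 and Hp keep more of their difference through shares (1.76 and 1.56), Slpi and Saa3 through levels (1.29 and 1.52), and for Lyz2 the parts point in opposite directions.

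The ratio of the lysozyme transcripts differed widely between mice. Lyz1 UMIs amounted to 21.6, 21.1, 60.9 and 15.3% of Lyz2 UMIs in control 1 to 4 and to 70.3, 32.3, 25.1 and 33.5% in cKO 5 to 8. The highest ratios were those of the small libraries, control 3 and cKO 5. Over the 7 myeloid clusters of a mouse, the ratio ran from 19.0 to 22.9% in control 1, 19.3 to 21.8% in control 2, 40.6 to 67.4% in control 3 and 8.61 to 17.8% in control 4. In cKO mice it ran from 62.7 to 77.1% in cKO 5, 20.5 to 34.5% in cKO 6, 19.7 to 25.7% in cKO 7 and 28.7 to 35.1% in cKO 8. It thus moved by over 1.5 times between clusters in control 3, control 4 and cKO 6 and by less in the other 5 mice. The last 300 bases of the transcripts, where 3′ reads fall, were identical at 93.8% of aligned positions. Reads of the pair can thus be split or lost in counting, and each gene alone is uncertain. Whether this has a part in the spread of the ratio between mice was not tested.

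Summed over the pair, lysozyme transcripts were at 16284, 12410, 10336 and 10832 CPM in control and at 18144, 15299, 14226 and 15361 CPM in cKO mice. Most cKO mice were above most controls, and control 1 was above 3 of the cKO mice. The log2 fold change was 0.43 (SE 0.15, adjusted p = 0.137), and the average over clusters was -0.43 (SE 0.12, adjusted p = 0.0199, edgeR), or -0.42 with a random term for the mouse (adjusted p = 0.229). In monocyte-like cells the pair was at 55362 ± 6081 CPM (SD, n = 3) in control and 30906 ± 6748 CPM (SD, n = 3) in cKO mice. Chil3 has a close copy too, Chil4, identical at 94.2% of the transcript and 89.4% of its last 300 bases.

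**Figure D5:**
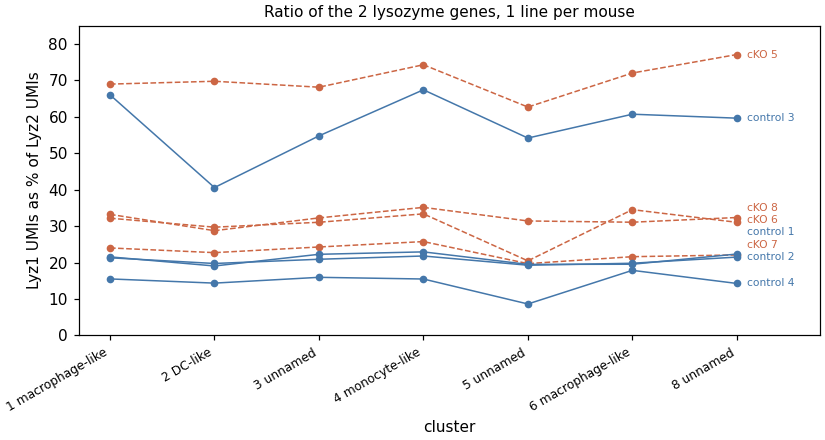
Lyz1 UMIs as a percentage of Lyz2 UMIs (y axis) in 7 clusters of myeloid cells (x axis), with 1 line per mouse, solid for control and dashed for cKO. Control 3 and cKO 5 lie above 40% throughout, control 4 is lowest at 8.61 to 17.8%, and the lines of the other 5 mice lie between 19.0 and 35.1% and cross in places.

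Genes whose pattern over the 24 control sums of mouse and cluster was most like that of a member were found by Pearson's correlation on log2(CPM + 10), as a description in which the sums share mice and depth. Hp was most like Tarm1 (r = 0.94), Chil3 (0.94) and F10 (0.92), and Chil3 most like Chil4 (0.94), Hp (0.94) and Msrb1 (0.91). Lyz2 was most like F13a1 (0.96), Lyz1 (0.95) and Igsf6 (0.95), Lyz1 like Lyz2 (0.95), Oas1g (0.94) and Clec4a3 (0.94), and Wfdc17 like Fcer1g (0.96), Tyrobp (0.95) and Lst1 (0.94). Slpi had Shisa5 (0.89), Rgcc (0.85) and 4833407H14Rik (0.81), Saa3 had Lgmn (0.68), Sdc4 (0.66) and Igfbp6 (0.66), and Lcn2 had 4732419C18Rik, Gm17455 and Tnfsf15 (each 0.67). Hp and Chil3 were among each other's closest genes, as were the lysozymes, and Shisa5 with Slpi was the closest match (0.89) among those of Slpi, Saa3 and Lcn2.

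Other secreted acute phase and antimicrobial genes were listed beside the members, 47 genes of which 19 were tested over all cells. Of these 4 were higher in cKO mice and 1 lower, and 14 did not pass. Cfb and C3, factors of the alternative complement pathway, rose by 3.41 (adjusted p = 0.000147) and 1.26 (adjusted p = 0.0104), Chil4 by 3.03 (adjusted p = 0.00747) and Pglyrp1, a peptidoglycan recognition protein, by 1.98 (adjusted p = 0.0104), and Cst3, the protease inhibitor cystatin C, fell by 0.80 (adjusted p = 0.0493), all on the log2 scale by edgeR. Saa1 and Saa2, named after their values were seen because they are the acute phase relatives of Saa3, had estimates of 2.31 (adjusted p = 0.111) and 2.86 (adjusted p = 0.0935) and did not pass. The median of the list was 0.82, beside -0.03 for all genes.

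Of 25 ligands, receptors and factors that induce the acute phase, 22 were tested, 3 were higher and 0 lower over all cells, with a median of 0.34. These were Il1a, an interleukin-1 (2.95, adjusted p = 0.0376), Osm, oncostatin M of the interleukin-6 family (1.27, adjusted p = 0.0218), and Cebpb, a C/EBP factor (1.36, adjusted p = 0.0391, edgeR for all). Of 20 receptors, targets and partners of the members, 16 were tested and 3 were higher, Fpr2, a formyl peptide receptor that serum amyloid A can bind (1.50, adjusted p = 0.0447), Tlr2, a receptor for bacterial lipopeptides (1.11, adjusted p = 0.0199), and Nod1, a sensor of peptidoglycan fragments (1.23, adjusted p = 0.0323), with 0 lower and a median of 0.39. Averaged over clusters, the counts of genes called higher and lower were 2 and 0, 3 and 0, and 1 and 1 for these 3 lists in the order given. The rise of monocyte markers and the fall of dendritic cell markers given above move with these sums too, and their part in them was not tested.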

How the data were processed

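Gene by cell counts of UMIs were deposited by the authors for 8 wells of sorted colonic cells, raw and before filters on cells. Per the labels and the methods, the authors aligned reads to mm10 with Cell Ranger and STAR (2.5.3a) and used R (3.5.0). All wells were run on the same day and cartridge. No column of another series was present (0 of 5947 barcodes were without a well).

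Cells were kept as in the methods at 2.8 or more for log10 UMIs, 2.6 or more for log10 genes, no hemoglobin UMI and up to 5% mitochondrial UMIs, which left 3213. They were clustered by scran (1.30.0), scuttle (1.12.0), BiocSingular (1.18.0) and bluster (1.12.0) into 9 Ward clusters on 11618 genes. Left out were 329 genes, which were the members, listed genes, markers, Slc3a2, the YFP reporter and the genes that the study lists as changed. Clusters were named only from marker lists. Scrublet in scanpy (1.11.5) called doublets per mouse, which were kept in the reported values and left out in an alternative.

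The mouse was the replicate. UMIs were summed for each mouse, and for each cluster of a mouse with at least 20 cells, and tested with edgeR (4.0.16) quasi-likelihood fits, TMM scaling and Benjamini-Hochberg adjustment over all genes tested at 0.05 (R 4.3.3). Genes over 1 CPM in at least 3 sums and found in at least 20 cells were tested, and all 8 members passed. Where the mice of a cluster are said to lie apart, the share of all genes that do so was not counted. Each mouse is 1 well, so in the fit over all cells p-values measure the spread between mice. The tests per cluster, of the average and of the difference come from 1 edgeR fit of 48 sums of mouse and cluster. That fit pools the spread over clusters and takes the sums of a mouse as independent. Alternatives used DESeq2 (1.42.0), limma-voom (3.58.1) with the mouse as a random term (correlation 0.03), no filter, each mouse left out, other clusterings, other limits on cells, and Lyz1 and Lyz2 summed. The depth was 4149 to 5538 UMIs per cell at the median of a mouse, and a level of 3 UMIs was taken as the floor.

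The members and gene lists were chosen with earlier results of these data known. The text names the 8 members, up to 5 genes per direction with the smallest adjusted p past 0.05 over all cells in each other list, and the 3 genes most like each member. Genes outside this rule are said to be so. Gene symbols were matched by identifier, and 88 genes had none. Promoter sequences are from RefSeq (GRCm38.p6) and gene positions and transcripts from GENCODE vM21. Scripts for the fits were tested on simulated data.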

Additional observations from a re-analysis of the deposited data

Results flagged for a closer look

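In 42 groups of 4 mice, the mouse at either end was compared with its nearest neighbour, and chance alone sets 1 in 20 such groups apart. Control 3 stood apart in the lysozyme ratio, with Lyz1 UMIs at 60.9% of Lyz2 UMIs where the other control mice were at 15.3 to 21.6%. This mouse had 85 cells, and cKO 5, the other small library, had the highest ratio of all.

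In the dendritic cell-like cluster, control 1 had Slpi at 119 CPM where the other control mice were at 3.18 to 4.34 CPM. Of its 158 Slpi UMIs there, 146 were in 2 cells, 0 of which were called doublets. Both also held UMIs of Cd79a or Jchain, genes of B lineage cells. Jchain was at 967 CPM over the control cells of this cluster, and the share of the other cells with such UMIs was not counted. Whether these 2 cells were of B lineage was not tested. Lcn2 in the same cluster was at 1.91 CPM in 1 control mouse and at 0 in the others, a level at the floor of 3 UMIs.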

How the results depend on the processing

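No paired analysis was possible because control and cKO mice share no replicate number. Over all cells, 510 genes were called, and 787 with no filter or 155 to 738 with a mouse left out. There Slpi was at 2.24 to 3.09 with a mouse left out and at 2.69 without doublet calls, Saa3 at 1.72 to 3.25, Lcn2 at 1.79 to 2.97 and, with no filter, at 2.48 (past the threshold, adjusted p = 0.0146, edgeR), Hp at 1.84 to 2.69, and Lyz2 at -0.28 in myeloid clusters only. Summed over clusters, 416 calls became 632 by DESeq2, 889 with no filter, 1131 with each cluster fitted alone, 785 by limma-voom, and 247 to 563 with a mouse left out. The fit per cluster with no filter and the fits of 6 of the 8 clusters alone set each gene's spread to a common value, so their calls count as less strict. Lyz1 in cluster 4 turned from -0.20 to 0.20 with sums of at least 10 cells and ran from -0.39 to 0.045 with a mouse left out.

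Averaged over clusters, 342 calls became 149 with graph clustering and 140 with all genes in the clustering. Graph clustering turned Wfdc17 to -0.067 and Lyz1 to -0.31, and with a mouse left out they ran from -0.053 to 0.20 and from -0.18 to 0.71. There the call of Slpi was lost without cKO 7 (adjusted p = 0.110) or with graph clustering (0.185), that of Saa3 without cKO 7 (0.0830), that of Chil3 without control 1, control 2 or cKO 8 (0.0550, 0.0781 and 0.365) or with either other clustering (0.727 and 0.230), and that of Lyz2 without control 1 (0.147) or with all genes clustered (0.602). Genes that differed between clusters went from 17 to 152 with no filter, 11 with sums of at least 10 cells, 0 with graph clustering, 3 with all genes clustered, and 5 to 61 with a mouse left out. Graph clustering put monocyte-like control levels at 1048 CPM for Saa3, 724 for Chil3, 1534 for Wfdc17, 6398 for Lyz1 and 33606 for Lyz2, and thinning put Hp and Chil3 at 914 CPM each. The causes of these shifts were not tested. The limma-voom average, the fit without both small libraries (Slpi 2.76, adjusted p = 0.0180) and the summed lysozymes were added after the data had been seen. Summed calls per cluster are not given for the other clusterings, since not every cluster had a match.

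Depth limits the low genes most. Lcn2 rests on 218 UMIs, and cluster 3 and cluster 8 on 2 control mice each.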

Other observations

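Some members also stood out in clusters in which no member was called. In the low-depth macrophage-like cluster 6, Saa3 was at 1248, 63.3 and 1286 CPM in control 1, 2 and 4 and at 5813, 5714 and 1000 CPM in cKO 6, 7 and 8. The cKO mice 6 and 7 were far above the controls and cKO 8 was among them. Wfdc17 was at 3991, 2090 and 2598 CPM in the same control mice and at 5422, 3600 and 2761 CPM in the cKO mice, and the groups overlapped. These values rest on 24 to 53 cells per mouse.

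In cluster 8, led by Pglyrp1 and Ear2, Slpi was at 420 and 373 CPM in control 1 and 4 and at 486, 1612 and 1432 CPM in cKO 6, 7 and 8, all above the controls, on 15 to 142 UMIs per mouse.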
